A study of Mus musculus with 18 samples.

Results

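Day 2 TKO aggregates formed with cytokines were compared with wild-type PGCLCs (primordial germ cell-like cells) made with cytokines for 6 days, to ask what the mutant cells still lacked, or had in excess, on their 2nd day. The comparison takes 4 of the 18 RNA-seq libraries of the series, 2 of each group, chosen by their labels, and covers all 25239 genes of the count table, of which 16582 had enough reads to be tested. Both groups come from the male mouse ESC line E14Tg2a. The TKO cells are a single clone, TKO C15, in which the open reading frames of Tet1, Tet2 and Tet3 were removed with CRISPR/Cas9. Cells were kept for 44 h in Activin A and FGF to become EpiLCs (epiblast-like cells, a formative pluripotent state) and were then aggregated in GK15 medium with BMP4, BMP8a, SCF, LIF and EGF. The same clone and the same wild-type line were also sequenced as EpiLCs, 2 libraries each. The study's legend states that the day 6 wild-type cells were sorted for SSEA1 and CD61 while the TKO aggregates were taken whole, whereas the labels name all of these samples aggregates. Genotype, day and sorting therefore differ together between the groups, and their effects cannot be told apart.

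Primordial germ cells are the embryonic founders of sperm and eggs. BMP signals induce them from the epiblast by switching on Prdm1, Prdm14 and Tfap2c, transcription factors that shut down somatic genes and bring back pluripotency genes. Their DNA then loses methylation genome-wide, and many later germline genes have CpG-rich promoters that are silenced by methylation in other cells. TET enzymes oxidise 5-methylcytosine, a step in removing that mark.

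Library totals were 26130723 and 28810831 counts in wild-type PGCLCs and 16224333 and 15462086 in day 2 TKO cells. The ribosomal locus Rn45s held 31.7% to 36.4% of the counts in these 4 libraries. Levels below are normalised counts (counts divided by the size factor of the library), replicate 1 before replicate 2. Differences are log2 fold changes, TKO minus wild type, ± standard error, with edgeR p-values adjusted over all genes tested. The study's legends call the replicates biological. Nothing in the labels says that they are separate differentiations, so the tests measure spread between libraries only. That spread was estimated over all 18 libraries of the series, not from these 4 alone. In whole-cell RNA, fewer expressing cells and less RNA per cell cannot be told apart.

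The deleted genes were checked before the rest. Tet1 was at 12106 and 11504 in wild-type PGCLCs against 623 and 589.6 in day 2 TKO cells, Tet2 at 3114 and 4812 against 296 and 399.7, and Tet3 at 171 and 330.1 against 62.3 and 54.6. All 3 were lower in both TKO libraries, with differences of -4.29 ± 0.36, -3.52 ± 0.46 and -2.11 ± 0.34 (adjusted p = 5.86e-06, 0.000196 and 0.000741). Counts cover whole genes, so the remaining reads may lie on exons outside the deletions.

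At an adjusted p below 0.05 and a difference of more than 4-fold, 463 genes were higher in day 2 TKO cells (2.79% of those tested) and 357 were lower (2.15%). In 462 of the 463 and in all 357, the 2 TKO libraries lay outside the range of the 2 wild-type libraries. The genes were called by that same difference, and no share over all genes tested is given beside it, so this is a description. Without the limit on size, 1720 genes were higher (10.4%) and 1574 were lower (9.49%). Those shares are the background for the gene lists below, in which a gene counts as higher or lower at an adjusted p below 0.05. The counts depended on single libraries. With 1 library left out, 256 to 436 genes were higher and 182 to 298 lower by more than 4-fold. At any size, the fits with 1 library left out had 3.77% to 6.52% of their genes higher and 3.03% to 5.25% lower, and a fit of only the 4 compared libraries had 17.4% and 16.2% (2538 and 2372 of 14598 genes), which are the backgrounds for the list counts given below from those fits. A gene is said below to hold without any library where its adjusted p stayed under 0.05 in all 4 such fits.

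**Figure D1:**
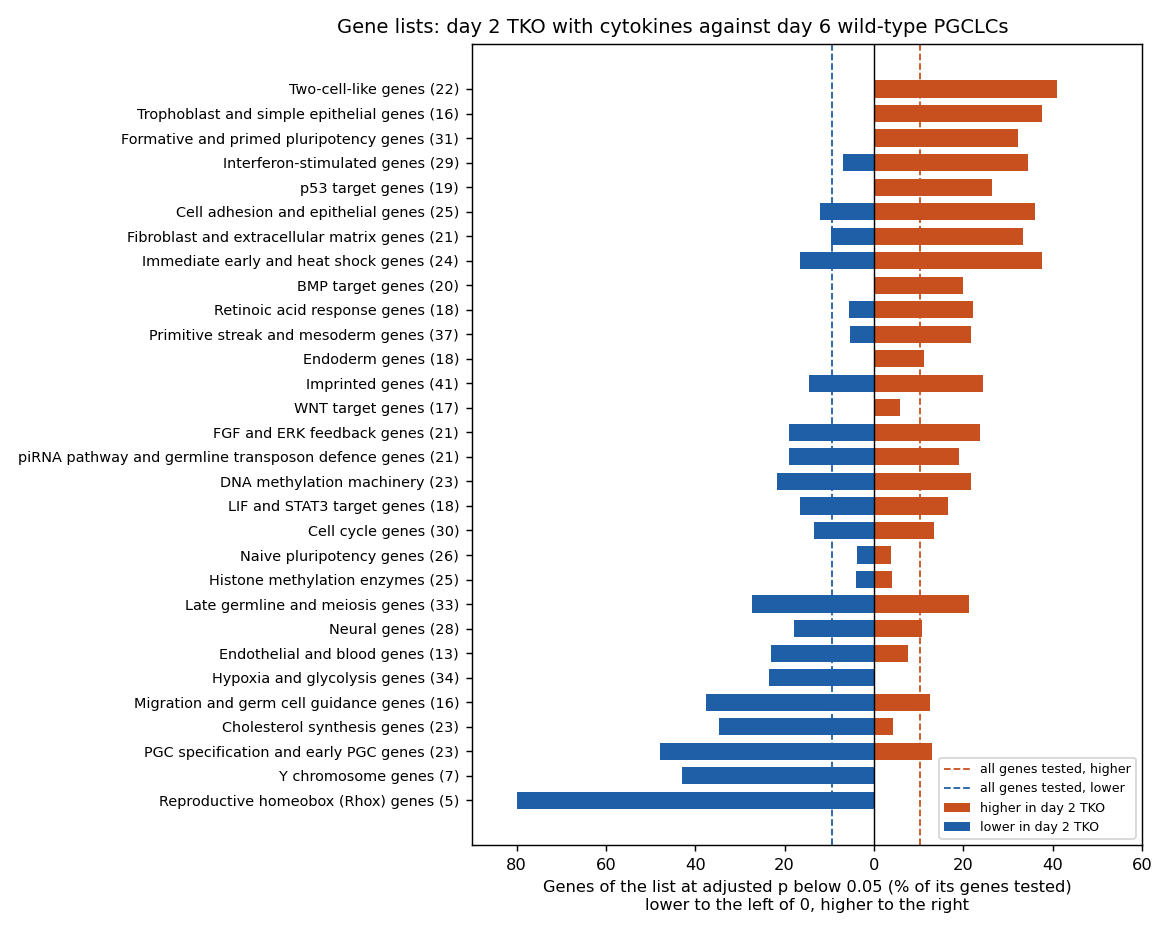
Share of each gene list that was higher (right) or lower (left) in day 2 TKO cells with cytokines than in day 6 wild-type PGCLCs at an adjusted p below 0.05, in % of the genes of the list that were tested (number in parentheses). Dashed lines mark the shares of all genes tested, 10.4% higher and 9.49% lower. Of the 30 lists plotted (all but the deleted TET genes), Rhox, PGC and Y chromosome genes reach furthest to the left, and two-cell-like, trophoblast and simple epithelial, and immediate early and heat shock genes furthest to the right.

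Early germ cell regulators were detected in day 2 TKO cells, most of them below their level in wild-type PGCLCs. Of 10 markers used to check the label, 7 were lower (Prdm1, Tfap2c, Nanos3, Dnd1, Dppa3, Kit and Itgb3), none was higher, and Prdm14, Nanog and Pou5f1 did not pass the test. Itgb3 encodes CD61, on which the wild-type cells were sorted, so its difference is no finding, although it is among the 7. Prdm1, which encodes the repressor BLIMP1, was at 1899.6 and 1755 in wild-type PGCLCs and at 362 and 276 in TKO cells. Both TKO libraries were far below both wild-type libraries, a difference of -2.53 ± 0.34 (adjusted p = 0.000213) that held without any library. Dppa3, a maternal-effect factor also called Stella, was at 901 and 871 against 197 and 137, and Dnd1, an RNA-binding protein needed for germ cell survival, at 861 and 734 against 256 and 101. Neither gene overlapped between the groups, and both differences (-2.42 ± 0.40 and -2.17 ± 0.41, adjusted p = 0.000837 and 0.00247) held without any library.

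Kit, the receptor for SCF on migrating germ cells, was at 7481 and 6649 in wild-type PGCLCs and at 800.1 and 1746 in TKO cells. The TKO libraries differed from each other by more than 2-fold, and the difference of -2.48 ± 0.50 (adjusted p = 0.00326) had an adjusted p of 0.0548 without TKO replicate 1. Nanos3, which protects germ cells from death, was at 239 and 142 against 88.4 and 65.8 (-1.31 ± 0.38, adjusted p = 0.0258). It did not pass without wild-type replicate 1 (-0.89, adjusted p = 0.267), nor without either TKO library. Tfap2c was at 4013 and 2851 against 2007 and 2230.5, a smaller difference of -0.71 ± 0.22 (adjusted p = 0.0385), which also rested on wild-type replicate 1 (-0.44 and adjusted p = 0.333 without it) and on each TKO library. Prdm14 was at 1295 and 1046 against 817 and 962. Both TKO libraries were below both wild-type libraries, but the difference of -0.41 ± 0.33 did not pass the test (adjusted p = 0.418). Nanog, at 6537 and 7239 against 6090.1 and 7564, overlapped between the groups (-0.02 ± 0.26, adjusted p = 0.97).

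**Figure D2:**
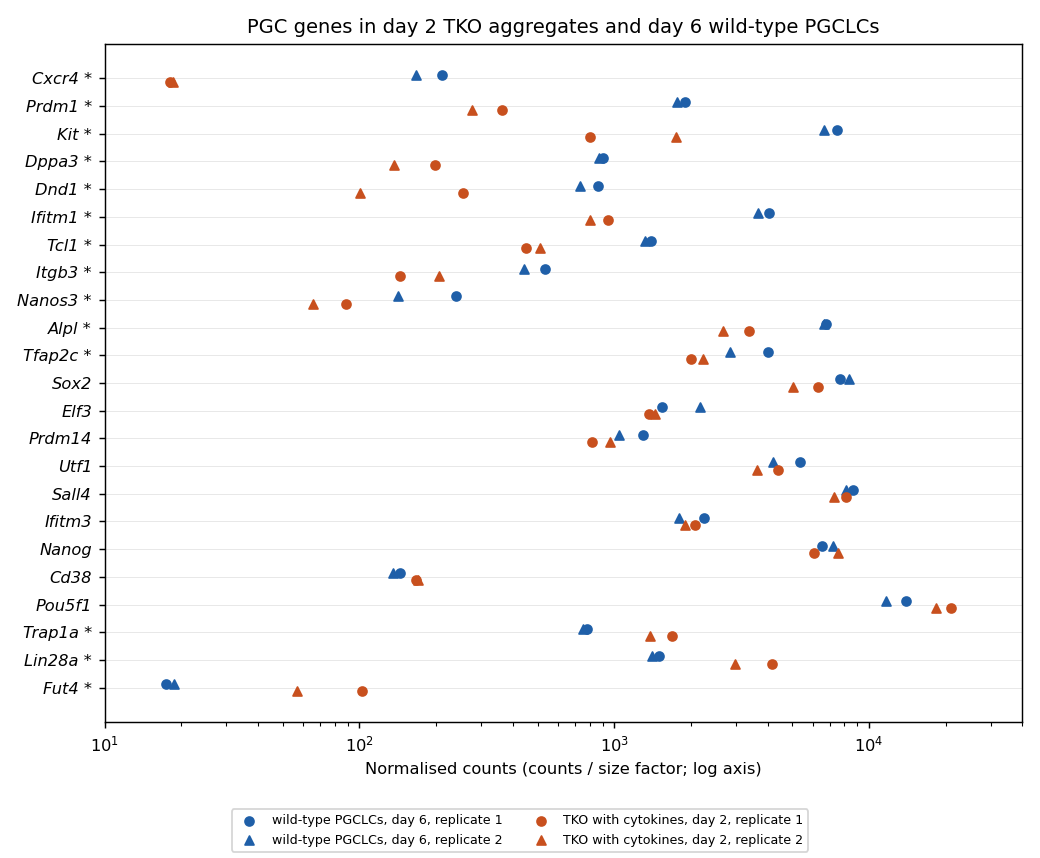
Normalised counts (log axis) of the 23 tested genes of the PGC list in each library of day 6 wild-type PGCLCs (blue) and of day 2 TKO cells with cytokines (orange), ordered by their difference; circles are replicate 1, triangles replicate 2, and stars mark an adjusted p below 0.05. The upper 11 genes lie lower in both TKO libraries, and the lowest 3 (Trap1a, Lin28a and Fut4) lie higher.

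Over the whole list of 23 PGC genes, 11 were lower and 3 higher, with a median of -0.51 against 0 for all genes tested. With 1 library left out, 6 to 9 were lower and 0 to 3 higher. The lowest count of lower genes came without TKO replicate 1, and the lowest count of higher genes without wild-type replicate 1. The largest difference was that of Cxcr4, the receptor that guides germ cells to the gonad, which was at 211 and 166 in wild-type PGCLCs and at 18.1 and 18.6 in TKO cells (-3.36 ± 0.40, adjusted p = 9.19e-05). Ifitm1, an interferon-inducible membrane protein of early germ cells, was at 4063 and 3656 against 946 and 803 (-2.15 ± 0.21, adjusted p = 1.72e-05). Both held without any library, and neither had a TKO library near the wild-type range. Among the higher genes, Fut4, which encodes a fucosyltransferase, was at 17.4 and 18.7 against 102 and 57.1 (2.13 ± 0.61, adjusted p = 0.0242). It did not pass without TKO replicate 1 or without either wild-type library.

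Of 16 genes of germ cell migration and guidance, 6 were lower, 2 were higher and 8 did not pass, with a median of -0.09. With 1 library left out, 3 to 5 were lower (3 without TKO replicate 1). The 6 include Itgb3, on whose product the wild-type cells were sorted. Apart from it and Cxcr4, Kit, Ifitm1 and Nanos3, the lower gene was Adam19, a membrane metalloprotease. Adam19 was at 6756 and 5248 against 1636 and 1671 (-1.87 ± 0.37, adjusted p = 0.00301). Its groups did not overlap and its difference held without any library.

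Late germline and meiosis genes split between the directions. Of 33 tested, 9 were lower and 7 higher, with a median of 0.21. With 1 library left out, 3 to 7 were lower and 3 to 6 higher, the lowest counts coming without wild-type replicate 1. Dazl, an RNA-binding regulator of germ cell translation, was at 583 and 631 in wild-type PGCLCs and at 55.5 and 186 in TKO cells (-2.34 ± 0.47, adjusted p = 0.00347). Sohlh2, a germ cell transcription factor, was at 695 and 716 against 103 and 176 (-2.35 ± 0.29, adjusted p = 0.000113), and Tex14, needed for bridges between germ cells, at 921 and 795 against 81.6 and 225 (-2.50 ± 0.47, adjusted p = 0.00226). All 3 were lower in both TKO libraries and held without any library.

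The opposite direction was seen for Sycp3, a structural protein of the synaptonemal complex, which was at 187 and 189 in wild-type PGCLCs and at 723 and 653 in TKO cells (1.86 ± 0.32, adjusted p = 0.0011). Taf7l, a germ cell transcription initiation factor on the X chromosome, was at 49.4 and 49.5 against 173 and 263 (2.13 ± 0.35, adjusted p = 0.00112). Both held without any library, and in each gene both TKO libraries exceeded both wild-type libraries. Stra8, the retinoic acid-induced gene of meiotic entry, was at 249.6 and 237 against 83.9 and 182 and did not pass the test (-0.88 ± 0.41, adjusted p = 0.147).

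The piRNA pathway, which silences transposons in germ cells, also had members in each direction, 4 lower and 4 higher of 21, with 2 to 3 lower and 2 to 4 higher with 1 library left out. Mael, which acts in piRNA production, was at 73.0 and 86.2 in wild-type PGCLCs and at 477 and 569.7 in TKO cells (2.71 ± 0.29, adjusted p = 6.4e-05), and Tex19.1, a germline protein of transposon control, at 707 and 558 against 1795 and 2132 (1.63 ± 0.28, adjusted p = 0.00113). Both held without any library. In the other direction Asz1, a mitochondrial-surface protein of the same pathway, had 117 reads in the wild-type libraries (36.2 and 41.8 normalised counts) and none in either TKO library, which makes it at least 22.0-fold lower, taking 3 reads over the group as the floor. Fkbp6, a co-chaperone of piRNA loading, was at 311 and 318 against 6.80 and 7.45 and is described with the genes already low in TKO EpiLCs. The Rhox cluster of X-linked homeobox genes was lower in 4 of its 5 tested members (2 to 4 with 1 library left out, the lowest without TKO replicate 1). Rhox5 was at 1363 and 961 against 89.5 and 98.1 (-3.64 ± 0.31, adjusted p = 7.71e-06), with no overlap, and it held without any library.

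Of 26 genes of naive pluripotency tested, 1 was lower (Tcl1) and 1 higher (Fgf4), shares of 3.85% each against 9.49% and 10.4% of all genes, and the median was 0.00. This depended on the model, since a fit of only the 4 compared libraries had 8 higher and 4 lower. Esrrb, a nuclear receptor of that state, was at 8563 and 8172 in wild-type PGCLCs and at 4521 and 5423 in TKO cells (-0.76 ± 0.61, adjusted p = 0.41), and Klf4 at 1185 and 2212 against 2748 and 1815 (0.42 ± 0.33, adjusted p = 0.402). A miss of the threshold does not show that these levels were equal. Formative and primed genes, by contrast, were higher in 10 of 31 and lower in none, with a median of 0.52, and 7 to 11 were higher with 1 library left out (7 without wild-type replicate 2).

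Dnmt3b, the de novo DNA methyltransferase of the epiblast, was at 437 and 494 in wild-type PGCLCs and at 3801 and 2932 in TKO cells (2.84 ± 0.29, adjusted p = 2.75e-05). It had been at 42663 and 48315 in wild-type EpiLCs and at 18018 and 16870.4 in TKO EpiLCs, so both genotypes lay below their EpiLC level and the TKO cells less far. The change from EpiLCs differed by 4.20 on the log2 scale (adjusted p = 8.27e-05). Pou3f1, the formative factor OCT6, was at 40.3 and 41.8 against 235 and 117 (2.09 ± 0.32, adjusted p = 0.000598). Sall2, a zinc finger factor, was at 41.0 and 63.1 against 645 and 484 (3.42 ± 0.32, adjusted p = 1.5e-05), and Pim2, a kinase of X chromosome origin, at 101 and 121 against 1242 and 749.7 (3.15 ± 0.39, adjusted p = 0.000135). All of these held without any library, with both TKO libraries above both wild-type libraries. Fgf5, the classical formative marker, was at 41.7 and 18.7 against 308 and 65.8 (2.63 ± 0.55, adjusted p = 0.00405), but TKO replicate 1 stood far above the other (1.13 and adjusted p = 0.164 without it), and without wild-type replicate 2 the adjusted p was 0.059.

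Among 23 genes of DNA methylation and its removal, 5 were higher and 5 lower, and with 1 library left out 1 to 4 were higher and 2 to 3 lower (the lowest counts without wild-type replicate 1). Dnmt1, the maintenance methyltransferase, was at 7965 and 7834 in wild-type PGCLCs and at 5211 and 5080.4 in TKO cells (-0.63 ± 0.14, adjusted p = 0.0055), which held without any library. Its partner Uhrf1 went the other way, at 2997 and 3709 against 6405 and 5063 (0.76 ± 0.23, adjusted p = 0.0272), but it did not pass without wild-type replicate 1 (adjusted p = 0.206), without wild-type replicate 2 or without TKO replicate 1. Of 25 histone methylation enzymes, 1 was higher (Prmt5) and 1 lower (Kdm4b), and in a fit of only the 4 compared libraries 2 and 6.

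The keratins of simple epithelia were higher in day 2 TKO cells. Krt8 was at 52.8 and 152 in wild-type PGCLCs and at 3561 and 3186 in TKO cells (5.03 ± 0.64, adjusted p = 0.000152), and its partner Krt18 at 121 and 217 against 2729 and 2602 (3.97 ± 0.75, adjusted p = 0.00233). Krt19 was at 54.9 and 82.4 against 835 and 595 (3.37 ± 0.31, adjusted p = 1.37e-05). In all 3 keratins both TKO libraries were above both wild-type libraries by more than 4-fold, and all held without any library. Tagln, an actin-binding protein of smooth muscle, was at 22.2 and 49.5 against 1857 and 1700.5 (5.61 ± 0.77, adjusted p = 0.000244), and Acta1, skeletal muscle actin, at 4.17 and 7.72 against 383 and 597 (6.32 ± 0.69, adjusted p = 4.84e-05). Wild-type aggregates without cytokines also had these genes on day 2, Tagln at 5076 and 5955 and Acta1 at 1975 and 1887.

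The list of trophoblast and simple epithelial genes had 6 of 16 higher and none lower (3 to 5 higher with 1 library left out, 3 without wild-type replicate 1), with a median of 1.27. Its summed level was 21231 to 28320 in TKO cells and 4812 to 8794 in wild-type PGCLCs. The list already differed between EpiLCs, where 5 were higher and none lower by more than 4-fold, with a median of 1.96 and sums of 14589 to 16819 in TKO and 2432 to 3068 in wild-type EpiLCs. The change from EpiLCs was more upwards in TKO cells in 2 of its genes and more downwards in 2, by more than 4-fold. The placental hormone and spongiotrophoblast genes of the list (Prl3d1, Prl2c2 and Tpbpa) had no counts in any of the 4 libraries, and Cdx2, a trophectoderm factor, did not pass the test (53.5 and 19.9 against 169 and 41.0, adjusted p = 0.216). Peg10, an imprinted placental gene, was at 3163 and 6627 against 18852 and 12824 (1.68 ± 0.43, adjusted p = 0.0141), though not without wild-type replicate 1 (adjusted p = 0.147) or TKO replicate 1 (0.112). Cell adhesion and epithelial genes were higher in 9 of 25 and lower in 3 (5 to 7 higher with 1 library left out, 5 without wild-type replicate 1). Cdh1, which encodes E-cadherin, was at 2949 and 3721 against 6828 and 7347 (1.08 ± 0.20, adjusted p = 0.0023). Zeb1, a repressor of Cdh1, was at 337 and 369 against 39.7 and 53.4 (-2.93 ± 0.46, adjusted p = 0.000644). Both held without any library.

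**Figure D3:**
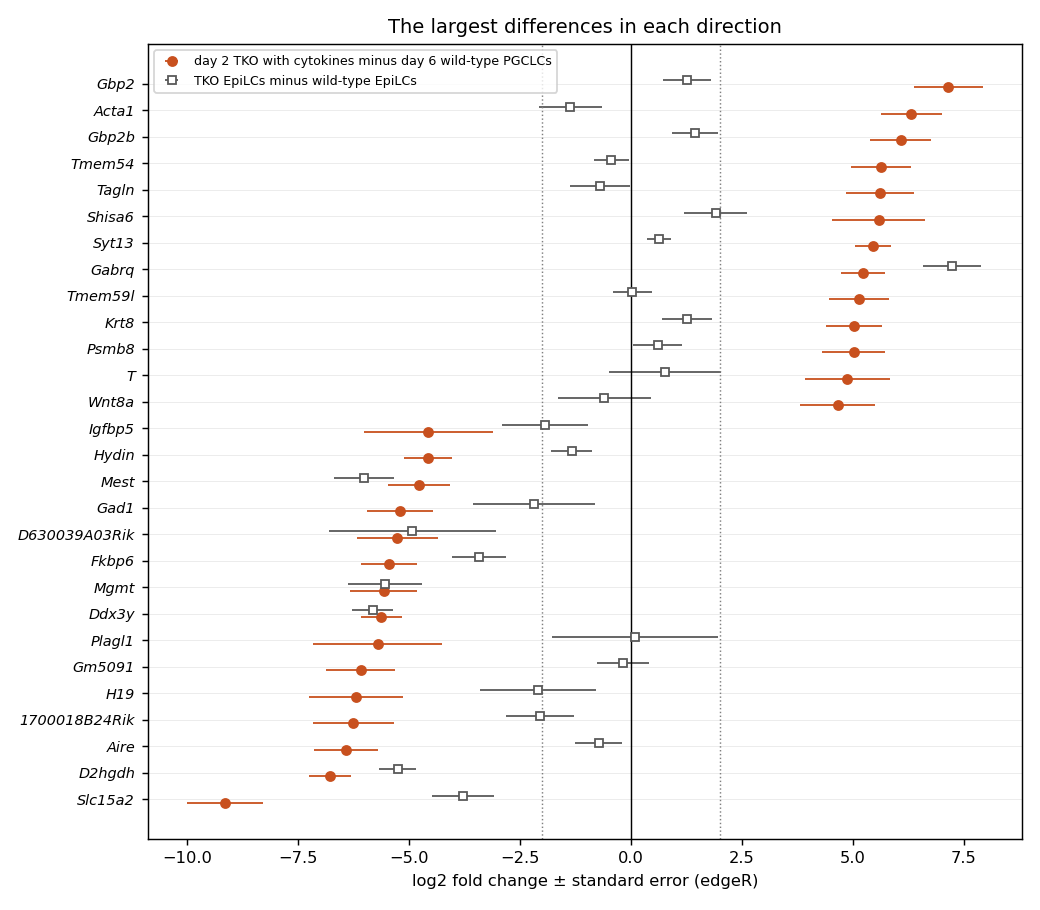
Genes reported here from the 15 highest and 15 lowest log2 fold changes (± standard error) of day 2 TKO cells with cytokines minus day 6 wild-type PGCLCs (filled circles), among called genes with a mean of at least 50 normalised counts in the higher group and no overlap between groups, with TKO minus wild-type EpiLCs beside them (open squares). Dotted lines mark a difference of 4-fold; of those shown, Gabrq is the 1 higher gene past it between EpiLCs as well, and Slc15a2, D2hgdh, Ddx3y, Mgmt, Fkbp6 and Mest are lower in both at an adjusted p below 0.05.

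Some genes of the interferon response were also higher. Gbp2, a GTPase that attacks the membranes of intracellular pathogens, had the largest positive difference of those ranked, at 4.87 and 2.57 in wild-type PGCLCs and at 619.9 and 470.4 in TKO cells (7.15 ± 0.77, adjusted p = 6.4e-05). Its neighbour Gbp2b was at 6.95 and 3.86 against 392 and 354 (6.08 ± 0.70, adjusted p = 9.98e-05). The 2 genes are close paralogues, and reads that map to both were not counted, so the split between them is uncertain. Oas1a, which makes the 2-5A activator of RNase L, was at 41.7 and 55.3 against 402 and 282 (2.80 ± 0.38, adjusted p = 0.000244). The groups did not overlap in any of these, and all 3 held without any library.

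The promoters of Gbp2, Gbp2b and Oas1a are shown because each holds a match to the interferon-stimulated response element, searched as GAAA, any 2 bases and GAAA again, on either strand. Each run is the 250 bases before the transcription start that RefSeq gives (GRCm38.p6, the assembly of mm10), 5′ to 3′ on the strand of the gene, with the match in capitals. The positions are chr3:142620413-142620662 (plus strand) for Gbp2, chr3:142594597-142594846 (plus) for Gbp2b and chr5:120907526-120907775 (minus) for Oas1a, where 2 overlapping matches form the run of capitals. The windows of Gbp2b and Oas1a reach a little past an upstream start of the annotated gene.
Gbp2: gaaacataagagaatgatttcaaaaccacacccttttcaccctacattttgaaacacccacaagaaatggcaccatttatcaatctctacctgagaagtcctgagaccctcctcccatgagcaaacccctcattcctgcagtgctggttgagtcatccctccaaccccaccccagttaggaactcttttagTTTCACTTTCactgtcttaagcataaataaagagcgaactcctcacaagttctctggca
Gbp2b: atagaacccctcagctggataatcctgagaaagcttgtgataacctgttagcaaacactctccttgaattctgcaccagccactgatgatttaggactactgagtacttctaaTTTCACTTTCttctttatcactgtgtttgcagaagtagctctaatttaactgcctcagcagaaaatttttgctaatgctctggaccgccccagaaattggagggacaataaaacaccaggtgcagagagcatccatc
Oas1a: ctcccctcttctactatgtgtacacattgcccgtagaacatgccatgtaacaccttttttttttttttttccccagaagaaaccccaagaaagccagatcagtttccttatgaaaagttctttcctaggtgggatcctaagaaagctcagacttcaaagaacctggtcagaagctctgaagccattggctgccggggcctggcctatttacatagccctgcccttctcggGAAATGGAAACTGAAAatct
Over windows of 300 bases (250 before and 50 after the start), the element was found in 10 of the 23 interferon-stimulated genes with a promoter and in 2.75% of the 12819 tested genes with one. It was in 3 of the 10 higher genes of the list (Gbp2, Gbp3 and Oas1a) and in both lower ones. A match is a description of the sequence and does not show that a factor binds.

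Of 29 interferon-stimulated genes tested, 10 were higher and 2 lower, with a median of 0.71, and with 1 library left out 6 to 9 were higher and none lower (6 without wild-type replicate 1). The 2 lower genes were Stat2 (474 and 581 in wild-type PGCLCs against 243 and 282) and Ddx58 (484 and 465 against 238 and 267), and neither passed in any fit with a library left out. Several of the higher genes act in antigen processing. Psmb8, a catalytic subunit of the immunoproteasome, was at 9.73 and 2.57 in wild-type PGCLCs and at 224 and 180.0 in TKO cells (5.02 ± 0.71, adjusted p = 0.000318), and Psmb9, another such subunit, at 11.8 and 10.9 against 85.0 and 70.8 (2.75 ± 0.42, adjusted p = 0.000511). Tap1, which starts beside Psmb9 on the opposite strand and pumps peptides into the endoplasmic reticulum, was at 71.6 and 88.2 against 333 and 314 (2.01 ± 0.42, adjusted p = 0.00427, and 0.0545 without wild-type replicate 1). Irf1 and Irf7, regulators of the response, did not pass (differences of 0.11 and -0.25, adjusted p = 0.79 and 0.768). Wild-type EpiLCs held Gbp2 at 137 and 220.1 and Psmb8 at 104 and 235, so the wild-type PGCLCs lay below their EpiLCs in both.

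Genes of the two-cell-like state, a set that is normally on in the two-cell embryo, were higher in 9 of 22 and lower in none, with a median of 1.07, and 5 to 8 were higher with 1 library left out (5 without wild-type replicate 1). Zscan4d, a telomere-associated factor of that state, was at 9.04 and 14.8 in wild-type PGCLCs and at 48.7 and 128 in TKO cells (2.85 ± 0.43, adjusted p = 0.000731), and Usp17lb, a deubiquitinase, at 20.9 and 14.8 against 85.0 and 174 (2.84 ± 0.37, adjusted p = 0.000279). Both held without any library and had been at 0 in both TKO EpiLC libraries. On day 6 with cytokines the TKO libraries had Zscan4d at 1730.2 and 1689.9. Zscan4, Usp17l and Tdpoz genes are near-identical copies, so the counts of single members are uncertain.

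Primitive streak and mesoderm genes were higher in 8 of 37 and lower in 2, with a median of 0.59, and TKO replicate 1 set much of it: 4 were higher without that library, and 4 to 7 over the 4 fits. T, which encodes brachyury, was at 16.0 and 19.9 in wild-type PGCLCs and at 999.5 and 77.0 in TKO cells. The TKO libraries differed more than 10-fold, and the difference of 4.88 ± 0.96 (adjusted p = 0.00298) was 2.09 without TKO replicate 1 (adjusted p = 0.133). Wnt8a, a WNT ligand of the streak, was at 6.95 and 5.79 against 283 and 45.9 (4.66 ± 0.84, adjusted p = 0.00166) and at 2.83 without that replicate. The summed level of the streak list was 3720 in that library and 1825 in TKO replicate 2, against 1694 and 1939 in wild-type PGCLCs. Eomes, also of the streak, was at 458 and 460.1 against 215 and 212 (-1.11 ± 0.32, adjusted p = 0.0241), without a pass in any fit with a library left out.

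The anterior Hox genes Hoxb1 and Hoxb2 had low counts, were higher in both TKO libraries, and were higher in TKO replicate 1 than in replicate 2. Hoxb1 had 47 reads in the TKO libraries (39.7 and 14.9 normalised counts) and 2 in the wild-type libraries, a ratio of 41.7 with a 95% counting interval of 10.9 to 354. Hoxb2 was at 1.39 and 4.50 against 66.9 and 23.6 (3.86 ± 0.66, adjusted p = 0.00135). Other germ layers had few changes in a common direction. The endoderm list summed to 4479 and 2197 in TKO cells and to 1983 and 1583 in wild-type PGCLCs. Its member Dab2 was higher (2.26, adjusted p = 0.00597), and its member Afp had no counts in either wild-type PGCLC library. Endoderm genes were higher in 2 of 18 and lower in none, with none higher without wild-type replicate 1, and Foxa2, Ttr, Apoa1 and Cer1 had no counts in either TKO library. Neural genes were higher in 3 and lower in 5 of 28, with none of the 5 lower without TKO replicate 1. Of the 3 higher, Nes, which encodes the intermediate filament nestin, was at 259 and 212 against 1038 and 931 (2.05 ± 0.42, adjusted p = 0.00384), and held without any library. The 5 lower include Elavl4 (-2.41, adjusted p = 0.0136) and Elavl3 (-1.24, adjusted p = 0.0105). Endothelial and blood genes were lower in 3 of 13 and higher in 1 (Lmo2), with 1 lower without wild-type replicate 2 and none higher without wild-type replicate 1, and Pecam1, an adhesion molecule of endothelium that germ and pluripotent cells also express, was at 2801 and 2553 against 707 and 668 (-1.97 ± 0.36, adjusted p = 0.00182). Fibroblast and extracellular matrix genes were higher in 7 of 21 and lower in 2, but 1 was higher without wild-type replicate 1. The 7 higher include Fbn1 (1.21, adjusted p = 0.0406) and Col5a1 (0.89, adjusted p = 0.0321). Of the lower genes, Lama1, a basement membrane laminin, was at 1219 and 1537 against 164 and 330.2 (-2.49 ± 0.40, adjusted p = 0.000753), with no overlap.

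Target genes of BMP, LIF, FGF and WNT signals did not move as a block. Of these signals, BMP4, BMP8a and LIF were in the aggregate medium. Of 20 BMP targets, 4 were higher and none lower (1 to 3 with 1 library left out, 1 without wild-type replicate 1). Id1, an inhibitor of differentiation factors induced by BMP, was at 298 and 254 in wild-type PGCLCs and at 1947 and 2266 in TKO cells (2.92 ± 0.63, adjusted p = 0.00515, and 0.0568 without wild-type replicate 2). LIF and STAT3 targets were higher in 3 of 18 and lower in 3, with none higher without wild-type replicate 1 and 1 lower without TKO replicate 1. Il6st, the shared receptor chain gp130, was at 2317 and 2316 against 1092 and 1211 (-1.02 ± 0.20, adjusted p = 0.00271) and held without any library. FGF and ERK feedback genes were higher in 5 of 21 and lower in 4, and the higher ones fell to 1 without TKO replicate 1. Fgfr3 was at 189.8 and 138 against 24.9 and 47.2 (-2.20 ± 0.34, adjusted p = 0.000595) and Fgfr2 at 409 and 359 against 141 and 120.4 (-1.56 ± 0.28, adjusted p = 0.00145), both without overlap and both held without any library. WNT targets had 1 of 17 higher, which was T.

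Of 18 retinoic acid genes, 4 were higher and 1 lower. Crabp1, a retinoic acid carrier, was at 382 and 351 in wild-type PGCLCs and at 30.6 and 32.3 in TKO cells (-3.55 ± 0.47, adjusted p = 0.000204), while its relative Crabp2 was at 20.9 and 31.5 against 131 and 113 (2.20 ± 0.38, adjusted p = 0.00126). The carriers thus went in opposite directions, and both held without any library. Immediate early and heat shock genes were higher in 9 of 24 and lower in 4 (3 to 6 and 0 to 3 with 1 library left out). Atf3, a stress-induced factor, was at 22.9 and 20.6 against 82.7 and 168 (2.51 ± 0.48, adjusted p = 0.00254), and held. p53 targets were higher in 5 of 19 and lower in none, but 1 was higher without wild-type replicate 1 and 11 in a fit of only the 4 compared libraries. The gene that held without any library was Perp, an apoptosis and adhesion protein, at 262 and 201 against 1304 and 1527 (2.60 ± 0.44, adjusted p = 0.001). Cell cycle genes were higher in 4 of 30 and lower in 4. With 1 library left out these were 1 to 2 and 0 to 2 (1 and 0 without wild-type replicate 1), and in a fit of only the 4 compared libraries 7 and 7. Mki67 was at 9369 and 8689.6 against 4850.3 and 5712 (-0.78 ± 0.21, adjusted p = 0.017) but did not pass without wild-type replicate 1, wild-type replicate 2 or TKO replicate 1.

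Hypoxia and glycolysis genes were lower in 8 of 34 and higher in none, with a median of -0.70. This count fell to 1 without TKO replicate 1, was 1 to 5 over the 4 fits, and was 17 in a fit of only the 4 compared libraries and 13 with no filter on low counts. The gene that held without any library was Hk1, a hexokinase that starts glycolysis, at 2585 and 2596 in wild-type PGCLCs and at 755 and 745 in TKO cells (-1.80 ± 0.36, adjusted p = 0.00305). Vegfa, a hypoxia-induced growth factor, was at 2482 and 2275 against 283 and 856 (-2.07 ± 0.52, adjusted p = 0.0121), with an adjusted p of 0.129 without TKO replicate 1 and of 0.0558 without wild-type replicate 1. Genes of cholesterol synthesis were lower in 8 of 23 and higher in 1, with a median of -0.46, and 3 were lower in each fit with a library left out. The 3 that held were Hsd17b7 (249.6 and 257 against 89.5 and 77.0), Dhcr7 (594 and 615 against 294 and 219.7) and Msmo1 (898 and 874 against 362 and 443), with differences of -1.61 ± 0.22, -1.24 ± 0.23 and -1.15 ± 0.19 (adjusted p = 0.000243, 0.00204 and 0.000987).

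The largest deficit of day 2 TKO cells was in Slc15a2, a peptide transporter. It was at 355 and 438 in wild-type PGCLCs and at 1.13 and 0 in TKO cells, 1192 reads against 1, a ratio of 672 with a 95% counting interval of 120.5 to 26583. D2hgdh, a mitochondrial enzyme that turns D-2-hydroxyglutarate into 2-oxoglutarate, was at 202 and 211 against 1.13 and 2.48, 619 reads against 3, a ratio of 116 (39.6 to 566). Aire, the autoimmune regulator that pluripotent cells also express, was at 627 and 902 against 11.3 and 6.21 (-6.42 ± 0.72, adjusted p = 6.39e-05). It overlaps the start of Dnmt3l on the opposite strand, and the counting did not use strand. Mgmt, which repairs alkylated guanine, was at 261 and 203 against 0 and 9.93 (-5.57 ± 0.75, adjusted p = 0.000237). Each of these 4 was lower in both TKO libraries and held without any library.

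Part of the deficit was there before the aggregates formed. Of the 357 genes lower by more than 4-fold, 26 (7.28%) were also called lower between TKO and wild-type EpiLCs, libraries that the comparison does not use, where 99 of all tested genes were lower (0.597%) and 284 were higher (1.71%). The 26 are 26.3% of the 99. D2hgdh was at 189.6 and 223 in wild-type EpiLCs and at 5.95 and 4.40 in TKO EpiLCs (-5.25, adjusted p = 8.7e-06). Mgmt was at 106 and 103 against 0.99 and 3.30 (-5.53, adjusted p = 0.0011), and Fkbp6 at 86.7 and 87.8 against 5.95 and 9.90 (-3.42, adjusted p = 0.0031). These genes were low in the TKO clone in both states, and their change from EpiLCs did not differ by the test (D2hgdh -1.53, adjusted p = 0.239; Mgmt -0.04, 1; Fkbp6 -2.03, 0.149). In the other direction, 7 of the 357 had been called higher in TKO EpiLCs, among them Meiob and Ier3.

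The promoters of D2hgdh, Mgmt and Fkbp6 are shown with each CpG, the site that TET enzymes and DNA methyltransferases act on, in capitals. The runs are the 250 bases before the RefSeq start used, chr1:93824990-93825239 (plus strand), chr7:136894336-136894585 (plus) and chr5:135350045-135350294 (minus), with 10, 15 and 17 CpGs. All 3 windows lie wholly or in part inside the annotated gene, because a longer transcript starts upstream. DNA methylation was not measured in these libraries.
D2hgdh: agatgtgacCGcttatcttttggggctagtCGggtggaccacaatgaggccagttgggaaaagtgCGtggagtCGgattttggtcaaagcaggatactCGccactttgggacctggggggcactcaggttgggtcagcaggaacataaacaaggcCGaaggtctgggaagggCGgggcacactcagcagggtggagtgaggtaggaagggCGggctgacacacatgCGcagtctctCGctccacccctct
Mgmt: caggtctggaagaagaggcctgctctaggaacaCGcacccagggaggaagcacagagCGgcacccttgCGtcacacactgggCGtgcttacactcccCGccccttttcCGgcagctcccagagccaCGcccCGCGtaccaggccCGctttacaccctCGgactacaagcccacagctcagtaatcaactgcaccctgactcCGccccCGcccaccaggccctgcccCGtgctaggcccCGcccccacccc
Fkbp6: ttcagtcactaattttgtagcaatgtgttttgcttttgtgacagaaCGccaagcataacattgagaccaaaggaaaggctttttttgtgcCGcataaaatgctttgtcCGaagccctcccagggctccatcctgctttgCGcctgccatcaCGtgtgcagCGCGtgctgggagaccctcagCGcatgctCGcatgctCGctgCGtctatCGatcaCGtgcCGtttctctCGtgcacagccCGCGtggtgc
Over the 300 base windows, the median number of CpGs was 12 for the 272 genes lower by more than 4-fold that have a promoter in the table, 11 for the 317 higher ones and 19 for all 12819. Windows with at least 15 CpGs made up 40.4% of the lower, 38.5% of the higher and 64.7% of all. Genes called in either direction thus had CpG-poorer promoters than the genes tested, as a description without a test. The 3 printed windows hold 13, 20 and 21 CpGs over 300 bases.

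Imprinted genes, expressed from 1 parental copy, were higher in 10 of 41 and lower in 6, with 3 to 7 higher (3 without wild-type replicate 1) and 4 to 7 lower with 1 library left out. H19, a maternally expressed noncoding RNA, was at 1198 and 1669 in wild-type PGCLCs and at 15.9 and 23.6 in TKO cells (-6.19 ± 1.05, adjusted p = 0.00112). It was low in wild-type EpiLCs too (mean 34.3 ± 26.5, SD, n = 2) and rose to 605 and 243 in day 6 TKO cells. Mest, a paternally expressed hydrolase, was at 249 and 431 against 14.7 and 9.93 (-4.77 ± 0.70, adjusted p = 0.000381). Plagl1, a zinc finger gene, was at 144 and 480.0 against 5.67 and 6.21 (-5.70 ± 1.46, adjusted p = 0.0135), where the wild-type libraries differed 3-fold and the test was missed without wild-type replicate 2 (adjusted p = 0.077) or either TKO library. Grb10, an adaptor that restrains growth signals, went the other way, at 508 and 403 against 1738 and 4331 (2.73 ± 0.54, adjusted p = 0.00298), as did Cdkn1c, a cell cycle inhibitor, at 150.2 and 199 against 612 and 495 (1.65 ± 0.29, adjusted p = 0.00134). Both held without any library.

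Some called genes of high count deserve their values. Malat1, a nuclear noncoding RNA, was at 56679.9 and 96037 in wild-type PGCLCs and at 12729.8 and 12164 in TKO cells (-2.63 ± 0.57, adjusted p = 0.00505). It was also lower in TKO EpiLCs (4679.6 and 6273 against 38419 and 35676), and the day 2 difference had an adjusted p of 0.0526 without TKO replicate 1. Car2, a carbonic anhydrase, was at 437 and 508 against 4246 and 3411 (3.01 ± 0.22, adjusted p = 3.16e-06), and Cd63, a lysosomal tetraspanin, at 730.1 and 693 against 4651 and 3223 (2.46 ± 0.32, adjusted p = 0.000189). Tmsb4x, an X-linked actin-sequestering peptide, was at 490.2 and 738 against 3980.0 and 5296 (2.91 ± 0.40, adjusted p = 0.000243), and Bex1, another X-linked gene, at 2889.7 and 2762 against 14750.4 and 10084 (2.13 ± 0.34, adjusted p = 0.000722). The TKO libraries were above the wild-type libraries in each of these 4, and each held without any library. Of the 39 genes of largest difference or count, 34 held in this way.

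Of the genes with the largest excess, several were high in EpiLCs of both genotypes. Syt13, a synaptotagmin, was at 499.6 and 535 in wild-type EpiLCs and at 847 and 729 in TKO EpiLCs, then at 4.17 and 5.79 in wild-type PGCLCs and at 212 and 241 in day 2 TKO cells (5.46 ± 0.40, adjusted p = 3.16e-06). The change from EpiLCs differed by 4.82 (adjusted p = 0.000116), more downwards in wild type. Tmem54, a membrane protein, had 95 reads in day 2 TKO cells and 3 in wild-type PGCLCs (65.7 and 45.9 against 0 and 1.93), a ratio of 56.1 with a 95% counting interval of 18.6 to 277, and was at 461 and 414 in wild-type EpiLCs. Across all 463 higher genes, the wild-type PGCLCs were below wild-type EpiLCs in 326 (70.4%), and the TKO cells were above TKO EpiLCs in 284 (61.3%). Across the 357 lower genes, wild-type PGCLCs were above their EpiLCs in 317 (88.8%), and the TKO cells were at or below theirs in 239 (66.9%). The genes were chosen by the difference between the groups, so these shares are a description.

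The change from EpiLCs was also tested directly, as the day 2 TKO change minus the day 6 wild-type change. By more than 4-fold, 251 genes changed more upwards in TKO cells (1.51% of those tested) and 412 more downwards (2.48%). These changes share their day 2 and day 6 libraries with the comparison above and are given beside its values, without an overlap. Prdm1, with a difference of -2.53 between the groups, had a change of -2.95 (adjusted p = 0.00316). Prdm14, with -0.41, had a change of -5.43 (adjusted p = 0.00167), since TKO EpiLCs already held it at 18.8 and 70.4 against 3.21 and 0.56. Its wild-type EpiLC levels rest on very few reads, so the size of this change is uncertain. Between EpiLCs of the genotypes, 68 of the 463 higher genes (14.7%, and 23.9% of the 284) were also called higher. They include Gabrq, an X-linked GABA receptor subunit, at 1.61 and 0.56 in wild-type and 159 and 126 in TKO EpiLCs, and at 2.09 and 7.08 in wild-type PGCLCs and 176 and 184 in day 2 TKO cells. A further 7 of the 463 had been lower in TKO EpiLCs, among them Zscan4d, Pim2 and Nes.

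**Figure D4:**
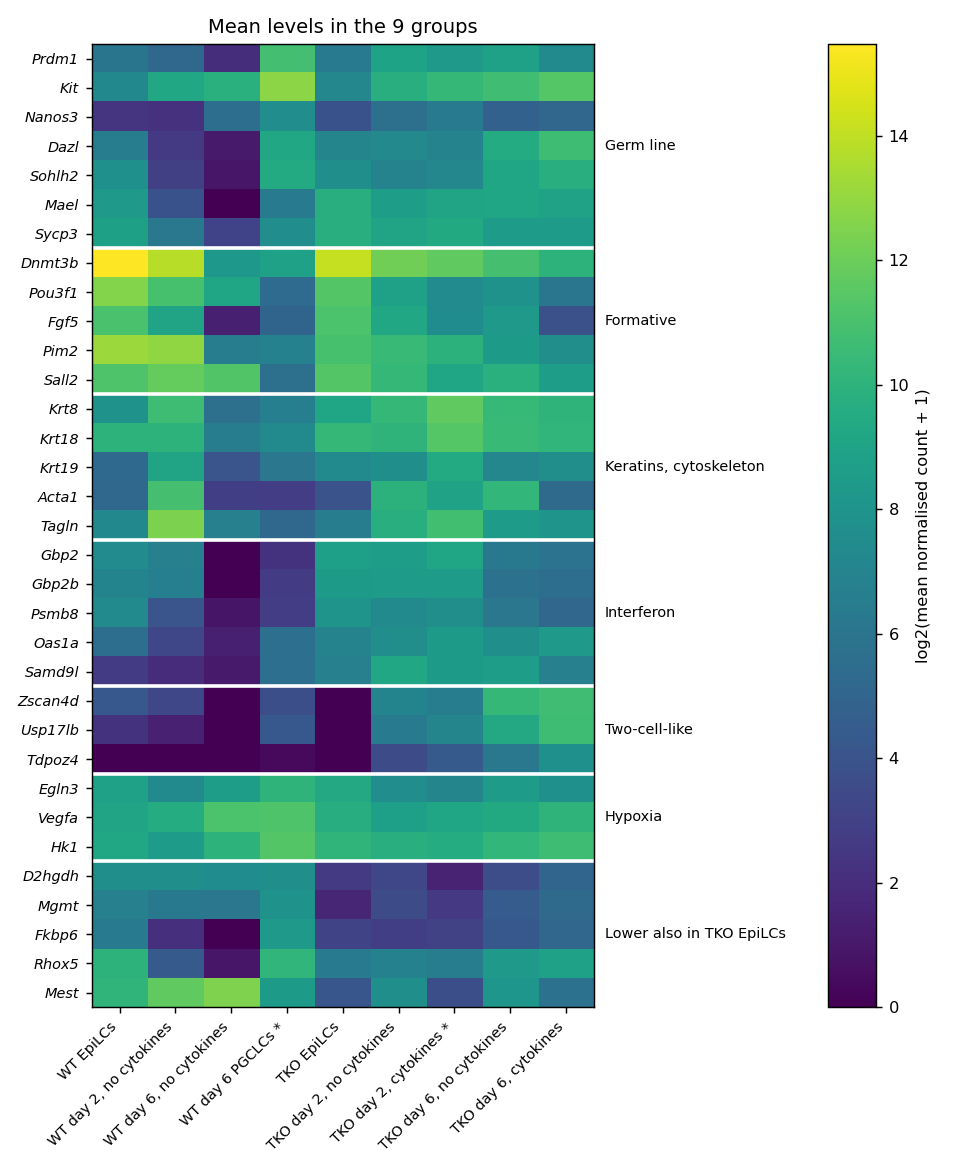
Mean levels, log2(mean normalised count + 1), of 33 genes described in the text in the 9 groups of 2 libraries each; stars mark the compared groups. Formative genes are highest in EpiLCs and lie higher in day 2 TKO cells than in wild-type PGCLCs, two-cell-like genes are highest in day 6 TKO cells, and D2hgdh, Mgmt and Fkbp6 are low in all 5 TKO groups.

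Other groups placed the called genes as follows. The shares are a description, since the means that set nearness also chose these genes. Of the 463 higher genes, the mean of TKO aggregates without cytokines on day 2 was nearer to that of day 2 TKO cells with cytokines than to that of wild-type PGCLCs in 422 (91.1%). The same held in 335 (72.4%) for day 6 TKO cells with cytokines, in 319 (68.9%) for TKO EpiLCs and in 215 (46.4%) for wild-type EpiLCs. Of the 357 lower genes the numbers were 260 (72.8%), 175 (49.0%), 266 (74.5%) and 216 (60.5%). Dazl was at 905 and 2290.3 in day 6 TKO cells, above both wild-type PGCLC libraries, and Sohlh2 was at 821 and 846 there. Prdm1 was at 111 and 208 and Nanos3 at 35.3 and 31.0 in the same libraries, below both day 2 TKO libraries.

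Called genes were spread unevenly over the chromosomes. On chromosome 14, 30 of 577 tested genes were higher by more than 4-fold (5.20%), and on the X chromosome 39 of 620 (6.29%), against 1.20% to 4.17% on the other 18 autosomes. The median difference over all tested genes was 0.30 on chromosome 14 and 0.45 on X, against -0.12 to 0.04 elsewhere. Both chromosomes stood out in the EpiLC libraries as well, with medians of 0.26 and 0.56 against -0.03 to 0.09, while the change from EpiLCs had medians of 0.06 and -0.03 there. Against the mean of wild-type EpiLCs, the median of chromosome 14 was 0.22 to 0.35 in the 10 TKO libraries and -0.17 to 0.12 in the 6 other wild-type libraries, and that of X was 0.36 to 0.63 against -0.07 to 0.24. When the genes of each chromosome were split into 4 equal parts by position, the median difference rose from -0.12 in the part nearest the chromosome start to 0.72 in the next to last on chromosome 14, and from -0.07 to 0.98 on X. Without these chromosomes 394 genes were higher (2.56%) and 334 lower. The part of these chromosomes in single results was not tested. Of the 8 tested Y genes, 3 were lower. Ddx3y was at 618 and 839.7 against 17.0 and 12.4 (-5.62 ± 0.46, adjusted p = 5.86e-06), and at 789 and 972 against 9.92 and 20.9 in EpiLCs.

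**Figure D5:**
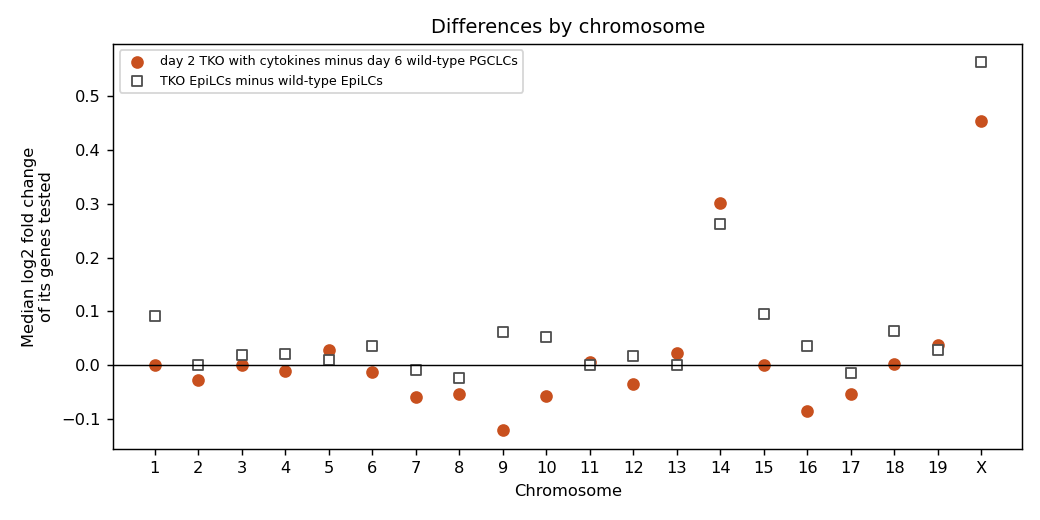
Median log2 fold change of the tested genes of each chromosome in day 2 TKO cells with cytokines minus day 6 wild-type PGCLCs (filled circles) and in TKO minus wild-type EpiLCs (open squares). Chromosomes 14 and X are the highest in both comparisons, at 0.30 and 0.45 and at 0.26 and 0.56.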

How the data were processed

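Total RNA was depleted of ribosomal RNA, made into directional libraries (NEBNext Ultra II) and sequenced on a NextSeq 2000. Per the submitters' processing notes and the study's methods, the authors trimmed reads with Trim Galore 0.5.0 and cutadapt 1.16, aligned them to mm10 with STAR 2.7.1a and counted read pairs on exons per gene with featureCounts (Subread 1.5.2). The deposited values are raw counts per gene of the refGene annotation. Counting used no strand and left out multi-mapping reads, so overlapping genes and near-identical copies cannot be told apart.

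Genes passing filterByExpr by group (16582 of 25239) were tested in 1 edgeR 4.0.16 quasi-likelihood model of the 9 group means over 18 libraries, with TMM factors and Benjamini-Hochberg adjustment over all genes tested, in R 4.3.3. A gene was called where its adjusted p was under 0.05 with more than 4-fold between the groups (2 on the log2 scale). Standard errors were approximated by dividing each log2 difference by the root of its F statistic. Levels are counts divided by DESeq2 1.42.0 size factors. Intervals of read ratios are 95% counting intervals and cover counting error only. Promoters are RefSeq windows of GRCm38.p6, found for 12819 tested genes.

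Groups came from the labels. The genes named are members of 31 gene lists, the 15 largest differences in each direction among called genes with a mean of at least 50 normalised counts in the higher group and no overlap between groups, and the 5 called genes of highest count in each direction. The comparison and the lists were chosen with earlier results of these data known. On counts simulated for this comparison (16405 genes, 200 of them changed), 99 of 100 genes changed by a log2 fold of 3 were recovered. Of those changed by 2.5, 99 of 100 were recovered, and 15 unchanged genes passed. Passing here meant an adjusted p below 0.05, without the limit on size. The changed genes were drawn above a minimum count and the noise followed the model, so this recovery need not hold for the real genes. Alternatives were other normalisations, filters, thresholds and models, a replicate block, DESeq2 and leaving out each library. Some genes that meet these rules are not reported here.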

Additional observations from a re-analysis of the deposited data

Results flagged for a closer look

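The change from EpiLCs differed between day 2 TKO cells with cytokines and day 6 wild-type PGCLCs, by the edgeR test of the difference itself (adjusted p below 0.05), in the following genes of largest difference or highest count. The values are log2 changes of the TKO cells minus those of wild type. Gbp2, Gbp2b and Psmb8 changed more upwards in TKO cells, by 5.89, 4.63 and 4.42, while of the 29 interferon-stimulated genes tested 2 changed more upwards and 3 more downwards by over 4-fold. Acta1 (7.68), Tagln (6.31), Krt8 (3.75) and Tmsb4x (2.11) also changed more upwards. The membrane and secretory genes Tmem54 (6.08), Tmem59l (5.11) and Syt13 (4.82) had the same direction, as did the ligand Wnt8a (5.26).

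Changes more downwards in TKO cells were those of Slc15a2 (-5.35), Aire (-5.70), Gm5091 (-5.91) and Hydin (-3.24), of the germ cell genes Kit (-2.41) and Ifitm1 (-2.87), and of the deleted gene Tet2 (-2.35). These differences share their day 2 and day 6 libraries with the comparison of levels.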

How the results depend on the processing

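Day 2 TKO cells against day 6 wild-type PGCLCs gave 463 higher and 357 lower genes. These were 1184 and 956 at a log2 limit of 1, and 292 and 198 at an adjusted p limit of 0.01. DESeq2 called 470 and 331. Of the called genes, 332 of the 463 and 231 of the 357 were called in all 8 alternatives that left out no library of a compared group. With 1 library left out the counts were 256 to 436 higher and 182 to 298 lower, and the cause of the loss was not tested. For the change from EpiLCs (251 higher, 412 lower), library size alone gave 166 and 693, the log2 limit of 1 gave 629 and 983, the stricter limit on p gave 92 and 149, and leaving out 1 library gave 125 to 318 and 187 to 489. Between EpiLCs (284 higher, 99 lower), library size alone gave 531 higher, and leaving out 1 library gave 113 to 290 higher and 51 to 90 lower. A fit of only the 4 compared libraries also moved the lower imprinted genes from 6 to 11 and the higher retinoic acid, neural and migration genes from 4 to 7, 3 to 6 and 2 to 4. Nanog, Irf1 and Irf7, which did not pass the test, changed sign with 1 library left out, with differences from -0.20 to 0.13, -0.25 to 0.39 and -0.58 to 0.18.

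Same-numbered libraries did not deviate together (r = -0.0077 for the compared groups, -0.156 to 0.182 over 36 pairs of groups, 7 of them over 0.1), so the numbers were not taken as pairs. With a replicate block, 454 genes were higher and 341 lower.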
